A study of Daphnia magna with 15 samples.

Results

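The conjugating enzymes of the water flea *Daphnia magna* are described here in whole animals raised at 15 °C on 5 diets. The members are the genes whose product name in the authors' annotation holds, ignoring case, glucuronosyltransferase, UDP-glycosyltransferase, glutathione S-transferase or sulfotransferase. This rule found 78 of the 26646 genes in the files. By name they fall into 20 UDP-glucuronosyltransferases (UGTs), 3 Golgi glucuronosyltransferases, 14 glutathione S-transferases (GSTs), 22 cytosolic or unspecified sulfotransferases and 19 glycan or protein sulfotransferases. Measured values do not enter this rule, but it was set with earlier results of these data known.

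All animals were of clone P132.85 and were mothers carrying their first clutch, so that results hold for 1 clone. RNA-seq was run on 3 pools of whole animals for each diet, given as 3 specimens in the source name and as 5 in the extraction protocol. The diets were GA (the green alga *Acutodesmus obliquus*), GA+EPA (the same food with eicosapentaenoic acid), CY (the cyanobacterium *Synechococcus elongatus*), CY+EPA, and CRY (*Cryptomonas*, a flagellate with EPA of its own). By the study's methods EPA was given in liposomes, and the sequenced GA animals received liposomes without EPA. By the same methods the CY food was enriched with cholesterol and an omega-3 fatty acid, written there as alpha linoleic acid. CY thus differed from GA in more than the basal food. CRY is not among the food treatments of those methods, which do not say whether it was supplemented. The 20 °C animals were not analysed here.

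Conjugating enzymes attach a polar group to fat-soluble compounds and so make them easier to excrete. UGTs transfer a sugar from a UDP-sugar, glucose in many arthropods and glucuronic acid in vertebrates. GSTs join glutathione to reactive compounds such as products of lipid peroxidation, and cytosolic sulfotransferases transfer a sulfonate group from the donor PAPS to phenols, alcohols and steroids. The Golgi enzymes in the list use the same donors for another purpose: they build and sulfate the sugar chains of proteoglycans, or sulfate tyrosines of secreted proteins. In arthropods the gut and the fat body are known sites of detoxification.

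The libraries held between 18062681 and 22287959 expected counts. Levels are given as CPM, counts scaled to library size, when diets are compared and as FPKM, which is per length, when genes are compared. Some libraries stood apart from their group. GA+EPA replicate 1 had a mean correlation of 0.963 with the other libraries of its diet over log2(CPM + 1) of 13008 genes, and CY replicate 1 had 0.961, against 0.993 to 0.994 for the GA libraries. Levels of some tissue markers also moved with diet. Enzymes of the gut were read from 78 genes for trypsins, chymotrypsins and carboxypeptidases. Their summed CPM was 22975 to 25106 in GA, 11015 to 18308 in CY and 16269 to 18891 in CRY. It was 9624 to 29477 in GA+EPA and 5915 to 15112 in CY+EPA. The lowest sums were those of GA+EPA replicate 1 (9624) and CY+EPA replicate 2 (5915). For 21 yolk genes the sum was 9916 to 15431 in GA, 24954 to 46618 in GA+EPA, 68502 to 147954 in CY, 76665 to 96825 in CY+EPA and 79230.0 to 110151 in CRY. The list of 8 globin genes holds by name haemoglobins, neuroglobins and a cytoglobin. Its sum was 480 to 926 in GA, 1019 to 1340 in GA+EPA, 1952 to 2881 in CY, 3049 to 3438 in CY+EPA and 1742 to 2376 in CRY. Of the 8, 2 were called higher and 1 lower in CY against GA, and 3 higher and 1 lower in CRY against GA. Of 11 muscle genes, 1 was called lower in CY against GA and 6 in CRY against GA, with none higher. Of 78 cuticle genes, 1 of 38 tested was called lower in CY, and 4 of 39 were called higher and 1 lower in CRY. Over all genes tested, 5.99% were called in CY against GA and 16.2% in CRY against GA. The cuticle list had a smaller share called in both, and 1 muscle gene in CY is too few to set against these shares. Of the gut and yolk lists, 2 of the 78 gut genes and none of the 21 yolk genes were at 0 in every library. In CY against GA, 8 of 58 tested gut genes were called lower and 2 higher, and 13 of 19 tested yolk genes were called higher and 1 lower. In CRY against GA, 13 of 57 tested gut genes were called lower and 12 higher, so the lower sum there does not describe the list gene by gene. Of 19 tested yolk genes, 13 were called higher and 2 lower in CRY. In whole animals, fewer cells of a type and less RNA per cell cannot be told apart. The part of these marker differences in the results below was not tested.

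GSTs were the most strongly expressed of these families. Their median of mean FPKM over the 15 libraries was 39.2, against 7.56 for cytosolic or unspecified sulfotransferases, 6.72 for glycan or protein sulfotransferases and 1.38 for UGTs. The GSTs KZS14636.1 and KZS19194.1 led with a mean FPKM of 467 and 430, followed by the microsomal KZS15273.1, an enzyme bound to membranes, with 188. KZS14637.1 and the Mu class KZS12224.1 came next with 59.3 and 55.2 FPKM. The leading sulfotransferase was KZS08027.1 (92.3 FPKM), and 4 neighbours of 1 tandem cluster, KZS16620.1, KZS16625.1, KZS16634.1 and KZS16627.1, followed with 78.9, 71.8, 58.0 and 55.9 FPKM. No UGT had a mean over the 15 libraries above 11.7 FPKM, that of KZS20180.1. KZS19435.1, KZS05562.1, KZS10049.1 and KZS18978.1 followed with 11.4, 8.23, 4.56 and 4.48 FPKM. Within a diet the means went higher, up to 30.7 FPKM for KZS19435.1 in GA. The Golgi glucuronosyltransferase KZS06248.1, which by name builds the linker of proteoglycans, reached 39.5 FPKM, above KZS17161.1 (9.09 FPKM) and KZS12996.1 (5.52 FPKM) of similar name. The glycan or protein sulfotransferases were led by the carbohydrate enzymes KZS05889.1 and KZS08207.1 with 26.7 and 20.7 FPKM, the tyrosine sulfotransferase KZS17915.1 with 19.99 FPKM and the heparan enzymes KZS16521.1 and KZS10648.1 with 13.3 and 12.7 FPKM. KZS08027.1, KZS16620.1 and KZS12224.1 had expected counts that were not whole in all 15 libraries, so that reads were split between each and other genes and their separate levels are uncertain.

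**Figure D1:**
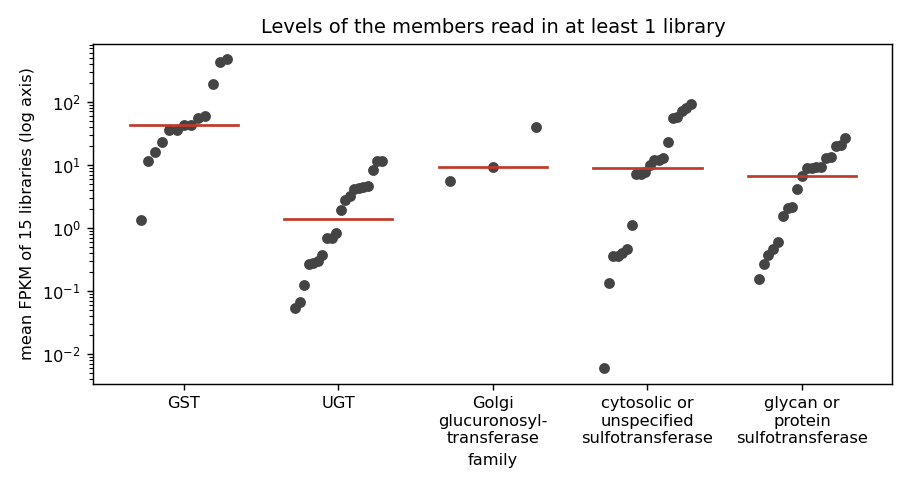
Mean FPKM over 15 libraries (log axis) of every member read in at least 1 library, by family. Points are genes and red lines family medians of the genes shown. The 2 leading GSTs lie at 467 and 430 FPKM, and every UGT lies at or below 11.7 FPKM.

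Of the 78 members, 66 passed the filter on low counts in at least 1 comparison and 58 in all 8. The 12 that passed in none include 3 at 0 in every library (GST omega-1 KZS02683.1 and the sulfotransferases KZS10881.1 and KZS16218.1), and 7 of the 12 have gene models shorter than 600 bases. Another of the 12, the sulfotransferase KZS19054.1, chosen after its values were seen, had 160 counts in CRY replicate 2 and 2 to 10 in the other 14 libraries.

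The first question was which of these genes differed between any of the diets. In a test over all 15 libraries, 11 of 66 tested members were called, which means an adjusted p not above 0.01 in edgeR's quasi-likelihood test. This is 16.7% beside 8.12% of all 14981 genes tested. They were 4 GSTs, 4 UGTs, 1 Golgi glucuronosyltransferase and 2 cytosolic or unspecified sulfotransferases, and none of the 18 tested glycan or protein sulfotransferases (4 with an unadjusted p not above 0.05, as had 41.4% of all genes, and 1 called by DESeq2). Mean CPM was highest in GA for 7 of the 11. With 1 library left out the number called ran from 5 to 16, and the share over all genes from 3.37% to 12.4%. It was 5, 6 and 7 members without GA replicates 1, 2 and 3, beside 3.39%, 3.37% and 3.42% of all genes. It was 7 without GA+EPA replicate 2, CY+EPA replicate 1, CRY replicate 1 or CRY replicate 3, beside 4.85%, 4.44%, 4.67% and 4.99%. Without GA+EPA replicate 1 and CY+EPA replicate 2 together, a choice made after seeing their marker levels, 17 members and 10.8% of all genes were called.

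The cyanobacterium diet was then compared with the green alga. In CY against GA, 15 of 60 tested members were called, 3 higher and 12 lower, or 25% beside 5.99% of all 14264 genes tested. Of all genes, 1.27% were called higher and 4.72% lower. The members called lower were 4 of 13 tested GSTs, 4 of 13 UGTs, 1 of 3 Golgi glucuronosyltransferases and 3 of 15 cytosolic or unspecified sulfotransferases. Each of these families except the Golgi enzymes also had 1 member called higher, and none of 16 glycan or protein sulfotransferases was called (3 had an unadjusted p not above 0.05, as had 29.8% of all genes, and DESeq2 called none). The median log2 fold change over the 60 members was -0.06 beside 0.00 over all genes. The count depended on each GA library, as did that over all genes. Without GA replicate 1, 2 or 3 it was 1, 2 and 2 members, beside 0.842%, 0.992% and 0.783% of all genes. Without CY replicate 3 it was 7, beside 2.86% of all genes. No sign changed among the 15 in these fits.

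Among the GSTs the largest difference was that of KZS14637.1, named GST A4 after a mammalian enzyme that acts on aldehydes from lipid peroxidation. It measured 192, 82.9 and 149 CPM in the GA libraries, 9.91, 12.1 and 8.77 CPM in CY and 9.71, 16.6 and 17.7 CPM in CRY. The groups were far from overlapping. The log2 fold change was -3.80 ± 0.32 (SE, n = 3 and 3) in CY against GA, with an edgeR adjusted p of 0.00107. It was the only one of the 15 members still called whichever library was left out, with adjusted p between 0.00169 and 0.00914. In CRY against GA, which shares the GA libraries, its log2 fold change was -3.25 ± 0.33 with an edgeR adjusted p of 0.00023. The gene lies at 1211929 to 1213388 on scaffold LRGB01000944.1 (reference v2.4, minus strand).

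KZS14637.1 belongs to a tandem cluster of 4 GST genes that spans 12060 bp, and the size of the difference varied among its neighbours. KZS14636.1, next to it and the leading GST of the set, measured 269 to 284 CPM in GA, 250 to 297 CPM in CY and 254 to 271 CPM in CRY. KZS14640.1, named S1 after the sigma class that includes prostaglandin D synthases, was called lower in CY, by 0.95 ± 0.16 on the log2 scale (edgeR adjusted p 0.00969), with 86.6 to 97.7 CPM in GA and 37.4 to 58.3 CPM in CY. Its counts were not whole in 12 libraries. KZS14635.1 was near the bottom of the GSTs at 1.04 to 2.79 CPM. Members of the same cluster thus differed in level and in the size of the difference, and none was called higher in CY or CRY. KZS14639.1, a prostaglandin D synthase by name that lies outside the rule and was looked at after its position was seen, held 0.453 to 0.926 CPM in GA and 0.321 CPM or less in CY.

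KZS19194.1, named only glutathione S-transferase, was the GST called higher. It measured 409, 455 and 452 CPM in GA, 688, 752 and 757 CPM in CY, and 678, 613 and 771 CPM in CRY. Its log2 fold change was 0.72 ± 0.09 in CY against GA (edgeR adjusted p 0.0031) and 0.66 ± 0.09 in CRY against GA (edgeR adjusted p 0.00095). In both, every library lay above every GA library. GST Mu 3 KZS21722.1 was called lower with a mean of 99.4 ± 6.4 CPM (SD, n = 3) in GA and 57.2 ± 6.6 CPM in CY, and GST kappa KZS18430.1, whose class is known from mitochondria and peroxisomes, with 33.3 ± 1.6 CPM in GA and 22.4 ± 2.0 CPM in CY. In CRY against GA these genes and KZS14640.1 were called lower too, by 0.54 ± 0.09 for KZS21722.1, 0.56 ± 0.08 for KZS18430.1 and 0.58 ± 0.09 for KZS14640.1 on the log2 scale. The summed CPM of the 14 GSTs was 1508 to 1543 in GA, 1455 to 1569 in CY and 1431 to 1699 in CRY, ranges that overlap.

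**Figure D2:**
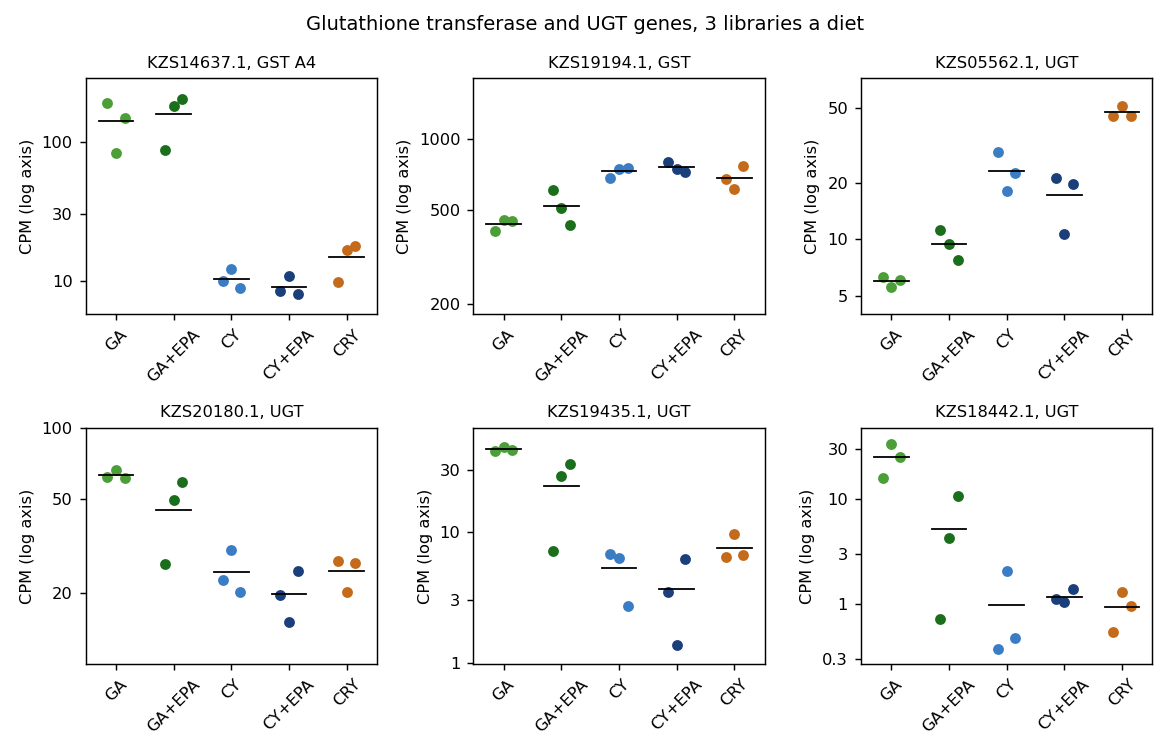
CPM (log axis) of 2 GST and 4 UGT genes in each library, by diet. Points are libraries and lines are means. GST A4 KZS14637.1 lies at 82.9 CPM or above in every GA and GA+EPA library and at 17.7 CPM or below in the others, KZS05562.1 is highest in CRY, and the other 3 UGTs are highest in GA.

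The UGTs summed to 172 to 197 CPM in GA, 72.8 to 111 CPM in CY and 125 to 143 CPM in CRY, so that neither CY nor CRY overlapped with GA. UGTs called lower in CY were KZS20180.1, KZS19435.1, KZS19433.1 and KZS18442.1. KZS20180.1 measured 62.5, 66.3 and 61.7 CPM in GA and 22.9, 30.4 and 20.3 CPM in CY, for a log2 fold change of -1.39 ± 0.15 (edgeR adjusted p 0.00199). KZS18442.1 measured 15.8, 33.9 and 25.4 CPM in GA and 0.379, 2.08 and 0.481 CPM in CY. Its log2 fold change was -4.71 ± 0.59 (edgeR adjusted p 0.00358), the lowest of the tested members in this comparison, and it was also the lowest in CRY against GA at -4.71 ± 0.37 (edgeR adjusted p 6.42e-05). GA did not overlap with CY or CRY for either gene. KZS20180.1 was also called in CRY, at 27.5, 20.3 and 26.8 CPM (log2 fold change -1.34 ± 0.11, edgeR adjusted p 7.41e-05).

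KZS19433.1 and KZS19435.1 are neighbours on scaffold LRGB01000389.1 (1075332 to 1084145) and share the orthologous group artNOG01683. KZS19435.1 measured 42.0, 45.0 and 42.7 CPM in GA and 6.82, 6.30 and 2.73 CPM in CY, with a log2 fold change of -3.05 ± 0.30 (edgeR adjusted p 0.00167). KZS19433.1 measured 15.8, 17.7 and 13.7 CPM in GA and 4.76, 2.25 and 2.84 CPM in CY, with a log2 fold change of -2.27 ± 0.28 (edgeR adjusted p 0.00333). Between them lies KZS19434.1, annotated Ugt36Ba and outside the rule by its name, which was looked at after its position was seen and measured 36.1 to 43.6 CPM in GA and 2.78 to 4.68 CPM in CY. In CRY against GA, KZS19435.1 and KZS19433.1 were called lower by 2.48 ± 0.15 and 1.34 ± 0.12 on the log2 scale. The neighbours were thus low together in CY and CRY, although the counts of KZS19435.1 were not whole in 13 libraries and reads may have been split between these genes.

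KZS05562.1 was the UGT called higher. It measured 6.30, 5.59 and 6.04 CPM in GA, 29.0, 18.0 and 22.5 CPM in CY and 45.3, 51.1 and 45.1 CPM in CRY. The log2 fold change was 1.94 ± 0.19 in CY against GA (edgeR adjusted p 0.00162) and 2.99 ± 0.09 in CRY against GA (edgeR adjusted p 1.12e-06), the latter the smallest adjusted p of any member in any of the 8 comparisons. Its 3 diets did not overlap. CRY was above CY by 1.04 ± 0.17 on the log2 scale, which was not called by edgeR (adjusted p 0.219) and was called by DESeq2 (adjusted p 0.000135).

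Of the Golgi glucuronosyltransferases, which build the proteoglycan linker, KZS17161.1 was called lower in both comparisons. It measured 32.6, 33.6 and 34.4 CPM in GA, 19.1, 18.7 and 13.7 CPM in CY and 22.2, 25.9 and 21.7 CPM in CRY. GA lay above all of these, with a log2 fold change of -0.98 ± 0.14 in CY (edgeR adjusted p 0.00487) and -0.51 ± 0.09 in CRY (edgeR adjusted p 0.0028).

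Cytosolic sulfotransferases differed gene by gene, and most clearly within a tandem cluster of 6 genes that spans 50166 bp (256263 to 306428) on scaffold LRGB01000687.1. KZS16634.1 and KZS16627.1, both named sulfotransferase 1C2 and next to each other among the members of the cluster, moved in opposite directions. KZS16634.1 measured 127, 130 and 128 CPM in GA and 52.6, 40.8 and 37.3 CPM in CY, for a log2 fold change of -1.57 ± 0.14 (edgeR adjusted p 0.00107). KZS16627.1 measured 50.7, 51.7 and 59.0 CPM in GA and 112, 128 and 110 CPM in CY, for a log2 fold change of 1.10 ± 0.10 (edgeR adjusted p 0.00109). In CRY the values were 71.0, 63.7 and 76.7 CPM for KZS16634.1 and 114, 102 and 117 CPM for KZS16627.1. Neither gene's CY or CRY libraries overlapped with GA, and both were called in CRY, with log2 fold changes of -0.85 ± 0.08 and 1.06 ± 0.08. The counts of KZS16627.1 were not whole in 7 libraries.

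Of the other 4 genes of the cluster, 1 was called in CRY against GA and none in CY against GA. KZS16619.1 had 10, 9 and 10 counts in GA and 56, 67 and 31 counts in CRY, and was called higher in CRY (log2 fold change 2.65 ± 0.33, edgeR adjusted p 0.00067). In CY it had 21, 36 and 19 counts and was not called (edgeR adjusted p 0.026). KZS16620.1 varied between 43.9 and 102 CPM within GA and between 20.3 and 235 CPM within GA+EPA, where replicate 1 was lowest. KZS16625.1 measured 103, 87.2 and 120 CPM in GA, 70.3, 92.3 and 60.7 CPM in CY and 75.8, 73.2 and 71.7 CPM in CRY, where every library was below GA without a call (log2 fold change -0.48 ± 0.11, edgeR adjusted p 0.011). KZS16635.1, the last of the row, held between 6.13 and 9.01 CPM in all 15 libraries. Outside the cluster, KZS13784.1 and KZS03672.1, both of the family named cytosolic 1B, were called lower in CY with 44.7 ± 4.8 and 15.0 ± 1.2 CPM in GA (SD, n = 3) and 21.4 ± 5.1 and 7.99 ± 1.4 CPM in CY.

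**Figure D3:**
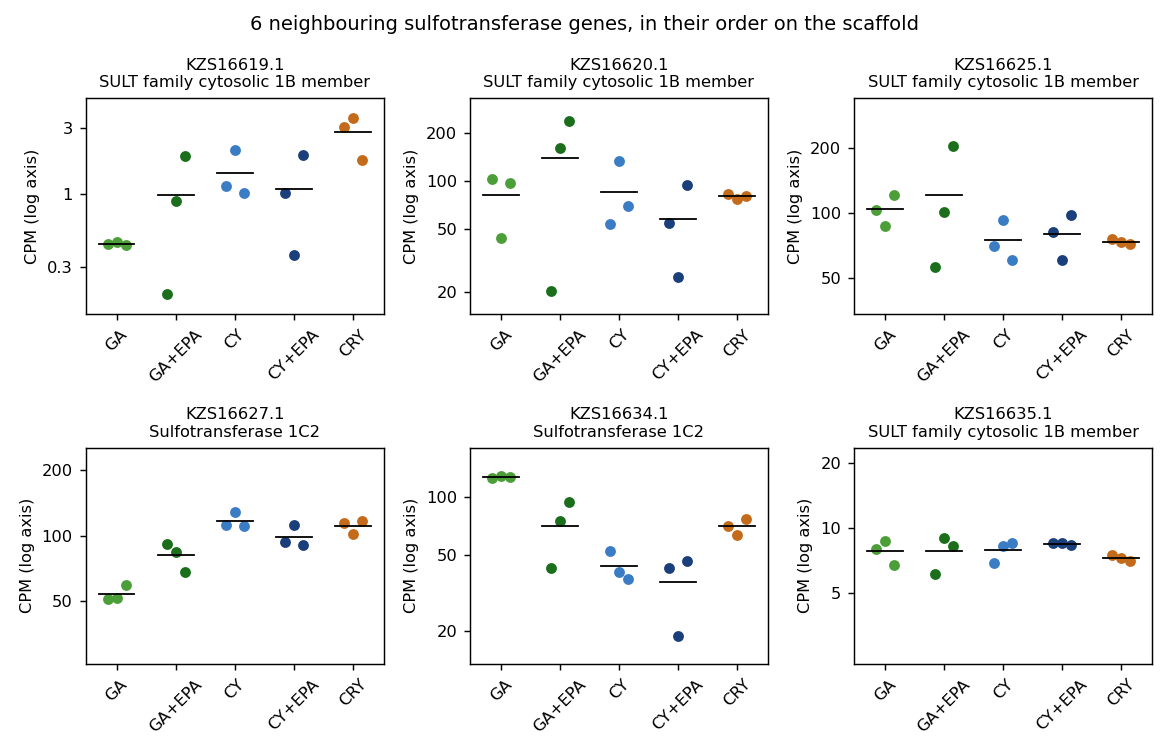
CPM (log axis) of the 6 sulfotransferase genes of a tandem cluster in each library, by diet, in their order on the scaffold. Points are libraries and lines are means. KZS16627.1 lies at 59.0 CPM or below in GA and at 110 CPM or above in CY, and KZS16634.1 lies at 127 CPM or above in GA and at 52.6 CPM or below in CY.

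The *Cryptomonas* diet was compared with the green alga in the same way. In CRY against GA, 22 of 62 tested members were called, 10 higher and 12 lower, or 35.5% beside 16.2% of all 14303 genes tested. Of all genes, 6.62% were called higher and 9.59% lower. UGTs had 8 of 13 tested members called, 3 higher and 5 lower, and GSTs 5 of 13, 1 higher and 4 lower. The cytosolic or unspecified sulfotransferases had 3 higher and 1 lower of 16, the glycan or protein sulfotransferases 3 higher and 1 lower of 17, and the Golgi glucuronosyltransferases 1 lower of 3. The median over the members was -0.02 on the log2 scale beside 0.00 over all genes. Without GA replicate 3, 14 members and 9.41% of all genes were called. Of the 22 members, 13 stayed called in every fit with 1 library left out. When all 15 libraries shared 1 fit, 9 members and 5.68% of all genes were called. In that shared fit CY against GA had 12 members and 6.13% of all genes called, so the order of the counts for CY and CRY depends on the fit. Since CY and CRY were set against the same GA libraries, their values are given side by side and their overlap is not a separate result.

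Several members called in CRY against GA and not in CY against GA had low levels. The UGT KZS12480.1 measured 4.45, 3.07 and 2.66 CPM in GA and 11.1, 11.7 and 9.08 CPM in CRY (log2 fold change 1.66 ± 0.20, edgeR adjusted p 0.00064). In CY it spread from 0.983 to 10.2 CPM, with CY replicate 1 highest. The UGT KZS10049.1 rose from 3.20 ± 0.63 to 9.21 ± 3.6 CPM (SD, n = 3), and the UGT KZS08882.1 fell from 2.34 ± 0.58 to 0.858 ± 0.25 CPM. The sulfotransferase 6B1 KZS21765.1, with 21.4, 23.0 and 25.0 CPM in GA and 39.4, 37.5 and 37.6 CPM in CRY, rose by 0.74 ± 0.07 on the log2 scale (edgeR adjusted p 0.00022). Its counts were not whole in 14 libraries and those of KZS10049.1 in 6, so that reads were shared with other genes. With 1 library left out, KZS12480.1 and KZS21765.1 stayed called in all 6 fits, KZS10049.1 in 2 and KZS08882.1 in 1.

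Among the enzymes that sulfate glycans, KZS14652.1 (a galactose sulfotransferase by name) measured 14.7 to 17.9 CPM in GA and 24.5 to 35.7 CPM in CRY, and KZS12298.1 (a heparin sulfate sulfotransferase) 0.907 to 1.54 CPM and 2.55 to 3.19 CPM. Both were called higher. KZS07542.1, a carbohydrate sulfotransferase, was called lower with 5.14 to 5.70 CPM in GA and 2.73 to 3.18 CPM in CRY. KZS21492.1, named after *pipe* of the fruit fly, a gene that patterns the embryo there, was called higher on 0, 2 and 3 counts in GA against 10, 14 and 10 counts in CRY, and no fold is given at these counts. It was no longer called when any 1 of the 6 libraries was left out (edgeR adjusted p 0.0191 to 0.0321). In these 6 fits KZS14652.1 stayed called in 3, KZS07542.1 in 2 and KZS12298.1 in 1.

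**Figure D4:**
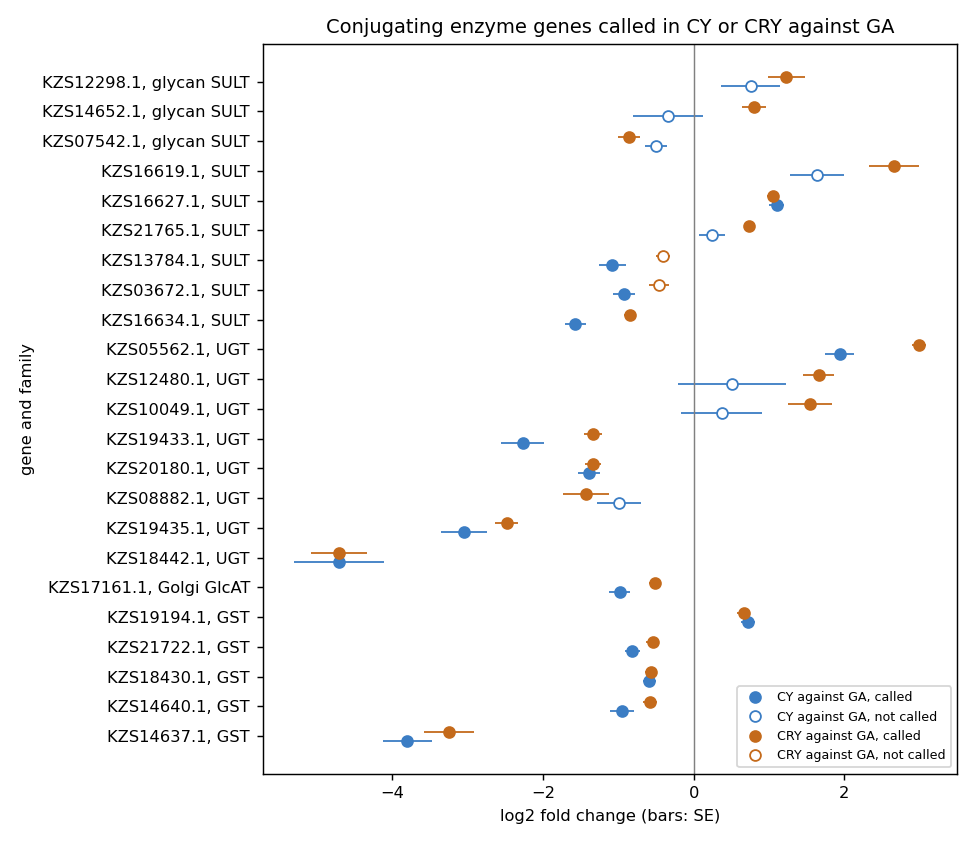
Log2 fold changes with SE (bars) in CY against GA and CRY against GA of the members called in either, without KZS21492.1, by gene and family. Filled points were called. UGTs run from -4.71 for KZS18442.1 to 2.99 for KZS05562.1, and the GA libraries are shared by both comparisons.

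Setting *Cryptomonas* against the cyanobacterium directly, edgeR called none of 62 tested members and none (0%) of all 14164 genes. An unadjusted p not above 0.05 was found for 11 members and 15.6% of all genes, and DESeq2 called 2 members and 1.14% of all genes. These were KZS05562.1 and KZS16634.1, and the latter was higher in CRY by 0.71 ± 0.15 on the log2 scale (edgeR adjusted p 0.231). Next to them by p stood sulfotransferase 6B1 KZS17526.1, with 7.74, 6.82 and 6.58 CPM in CY and 11.8, 10.9 and 11.3 CPM in CRY (log2 fold change 0.70 ± 0.13, edgeR adjusted p 0.219). Without CY replicate 1, the library with the highest yolk sum, edgeR called 1 member, KZS05562.1, and 0.691% of all genes.

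The same contrast of foods was repeated in animals that all received EPA, in libraries shared with neither CY nor GA. In CY+EPA against GA+EPA, edgeR called 1 of 62 tested members, or 1.61% beside 0.147% of all 14289 genes (0.126% called higher and 0.021% called lower). It was GST A4 KZS14637.1, with 87.7, 180 and 205 CPM in GA+EPA and 8.35, 10.7 and 7.99 CPM in CY+EPA. The log2 fold change was -4.13 ± 0.36 (edgeR adjusted p 0.00989), and DESeq2 called it as well (adjusted p 5.38e-29). Its edgeR adjusted p exceeded 0.01 when GA+EPA replicate 2 or 3, or any of the CY+EPA libraries, was left out, reaching 0.112. The log2 fold change stayed between -4.56 and -3.90 in these fits and in one without GA+EPA replicate 1 and CY+EPA replicate 2 together.

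For the 15 members called in CY against GA, the sign was the same with EPA in all 15, beside 98.1% of the 848 genes of all kinds called there and tested here. The size was smaller with EPA in 14 of the 15 members and in 795 of the 848 genes of all kinds. Taken in the direction found without EPA, the members' median log2 difference was 1.10 without EPA and 0.67 with it. Over all such genes it was 1.31 and 0.79. Members and genes were picked by their difference without EPA, so the 2 sizes do not stand on equal terms. Of the 12 members lower in CY than in GA, GA+EPA replicate 1 was the lowest library of its diet in 11, which is 91.7% of the members and 91.7% of the 673 genes of all kinds lower in CY. CY+EPA replicate 2 was lowest of its diet in 10 of the 12 (83.3%), beside 86% of the 673 genes. Without these 2 libraries together edgeR called 4 members and 2.30% of all genes: KZS14637.1 (log2 fold change -4.56 ± 0.12), KZS19435.1 (-2.64 ± 0.26), KZS20180.1 (-1.30 ± 0.15) and KZS05562.1 (1.24 ± 0.14).

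The effect of EPA itself was asked on each basal food. The GA label names no supplement, whereas the methods describe control liposomes. On GA, edgeR called none of 60 tested members and none (0%) of 14353 genes. An unadjusted p not above 0.05 was found for 12 members and 18.4% of all genes. Without GA+EPA replicate 1 there was still no member, and 0.00684% of all genes. DESeq2 called 1 member and 2.51% of all genes. That member was sulfotransferase KZS16627.1, with 50.7, 51.7 and 59.0 CPM in GA and 91.8, 83.8 and 68.1 CPM in GA+EPA (edgeR log2 fold change 0.61 ± 0.12, adjusted p 0.105; DESeq2 adjusted p 0.005). KZS05562.1 measured 11.2, 9.39 and 7.75 CPM in GA+EPA (log2 fold change 0.67 ± 0.15, edgeR adjusted p 0.114). For these 2 genes the GA+EPA libraries lay above every GA library and below every CY library. GST KZS14635.1 was lower by 0.63 ± 0.18 on the log2 scale (edgeR adjusted p 0.157).

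On CY, edgeR called none of 61 tested members and none (0%) of 14162 genes. No member reached an unadjusted p of 0.05, beside 1.93% of all genes, and DESeq2 called no member and 0.0282% of all genes. The smallest p was again that of KZS16627.1, with 93.1, 112 and 90.7 CPM in CY+EPA, a range that overlaps with CY (log2 fold change -0.25 ± 0.11, edgeR adjusted p 1.00). KZS07542.1 and KZS05562.1 followed at -0.28 ± 0.17 and -0.45 ± 0.30, with the same adjusted p.

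The difference between the effects of EPA on the 2 foods was tested in 1 fit of 12 libraries. No member of 63 was called by edgeR and none (0%) of 14816 genes, and 5 members had an unadjusted p not above 0.05 beside 10.8% of all genes. The smallest p was 0.000519 for KZS16627.1, whose log2 response to EPA was 0.83 ± 0.17 greater on GA than on CY (edgeR adjusted p 0.233). DESeq2 called this difference (adjusted p 0.0062), as the only member beside 0.297% of all genes. KZS05562.1 differed by 1.10 ± 0.35 (edgeR adjusted p 0.341) and KZS18430.1 by -0.42 ± 0.14 (edgeR adjusted p 0.347).

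The genes that supply and follow conjugation were read from lists by product name. The glutathione list holds 16 genes, of which 6 are transglutaminases by name, enzymes that cross-link proteins and do not make glutathione. Of the 13 tested, 3 were called lower and none higher in CY against GA, beside 4.72% and 1.27% of all genes. All 3 make glutathione: both subunits of glutamate-cysteine ligase, the rate-limiting enzyme, and a glutathione synthetase, which completes it. The catalytic subunit KZS07939.1 measured 175, 160 and 165 CPM in GA, 35.1, 43.2 and 36.3 CPM in CY and 42.4, 42.8 and 36.3 CPM in CRY. Its log2 fold change was -2.14 ± 0.10 in CY (edgeR adjusted p 0.000305) and -2.03 ± 0.08 in CRY (edgeR adjusted p 2.77e-06).

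The synthetase KZS15426.1 measured 155, 170 and 165 CPM in GA and 36.0 to 40.4 CPM in CY, for a log2 fold change of -2.13 ± 0.08 (edgeR adjusted p 0.000305). The regulatory subunit KZS08063.1 fell by 1.64 ± 0.12 on the log2 scale (edgeR adjusted p 0.00073). In GA+EPA the catalytic subunit measured 74.5, 100 and 139 CPM, below every GA library and above every CY library, and its EPA effect on GA was not called (log2 fold change -0.65 ± 0.22, edgeR adjusted p 0.2). In CRY against GA, 6 of the 13 were called lower and 2 higher, beside 9.59% and 6.62% of all genes. The 2 higher were the transglutaminases KZS09124.1 and KZS15584.1 (0.62 and 0.95 on the log2 scale), and the lower ones included the transglutaminases KZS13836.1 and KZS13837.1 (-0.57 and -0.81) and a further glutathione synthetase, KZS05736.1 (-0.39). Without the transglutaminases the result was 4 lower and none higher of 8. The remaining 10 genes also hold gamma-glutamyltransferases and thioredoxin reductases. Their summed CPM was 738 to 775 in GA, 430 to 483 in CY and 428 to 442 in CRY. The sum of the 14 GST members overlapped between these diets. That sum leaves out 3 GSTs by the spelling of their names. These 3 summed to 521 to 574 CPM in GA, 283 to 438 CPM in CY and 395 to 486 CPM in CRY. A contrast between GSTs and glutathione supply may thus depend on the name rule.

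Of the 3 PAPS synthases, which make the donor of the sulfotransferases, 1 was called lower in CY and 2 in CRY, and none higher. Over all genes, 4.72% were called lower in CY and 9.59% in CRY. KZS07699.1 was called in both, at -0.73 ± 0.10 in CY and -0.80 ± 0.11 in CRY on the log2 scale. KZS07700.1 measured 155, 100 and 180 CPM in GA, 19.6, 79.8 and 78.4 CPM in CY and 28.8, 27.5 and 38.1 CPM in CRY, and was called in CRY (log2 fold change -2.19 ± 0.21, edgeR adjusted p 0.000196) but not in CY (edgeR adjusted p 0.134). Of the 5 tested genes of the export list, drawn up by product name, 1 was called lower in each comparison. This count is too small to set against the shares over all genes. The gene was multidrug resistance protein 4 KZS02949.1, a pump known to carry conjugates in mammals. Its log2 fold changes were -1.30 ± 0.22 in CY (edgeR adjusted p 0.00927) and -0.59 ± 0.08 in CRY (edgeR adjusted p 0.000983). Among 2 tested genes for the UDP-sugar donor, KZS22058.1, which makes UDP-glucose, was called higher in CRY with 154 to 162 CPM in GA and 204 to 206 CPM in CRY, and none was called in CY by edgeR or DESeq2, nor had an unadjusted p not above 0.05. None of 6 tested genes of the deconjugation list was called by either tool. An unadjusted p not above 0.05 was found for 1 of them in CY and 2 in CRY, beside 29.8% and 41.2% of all genes. By name this list also holds an extracellular sulfatase, sulfatases of glycans and a sulfatase-modifying factor, so its counts are not those of deconjugating enzymes alone.

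**Figure D5:**
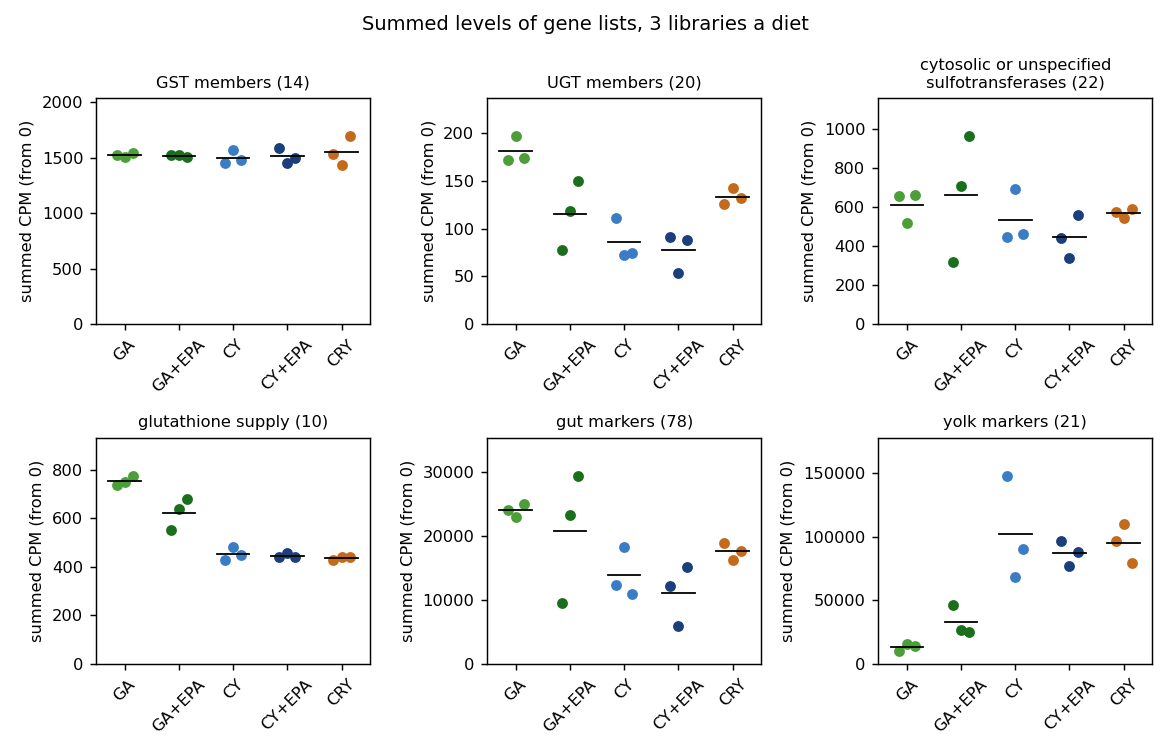
Summed CPM (axes from 0) of 3 member families, of 10 genes for glutathione supply and of the gut and yolk marker lists in each library, by diet. Points are libraries and lines are means. The sums of the 14 GST members overlap between all diets, and 3 GSTs with another spelling are not in them. The glutathione supply is 738 or above in GA and 483 or below in CY. GA+EPA replicate 1 (left point) and CY+EPA replicate 2 (middle point) are low in UGTs, cytosolic sulfotransferases and gut markers.

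The annotation puts 26 members into 10 tandem clusters of 2 to 6 genes of 1 family, with at most 20 kb between neighbours. Both groups of sulfotransferases were taken as 1 family here, and the cluster of KZS14652.1 and KZS14653.1 joins the groups. The largest orthologous group is artNOG05321, with 9 UGTs, of which 4 were tested. None was called in CY against GA, and in CRY against GA KZS12480.1 was called higher and KZS08882.1 lower, counts too small to set against the shares over all genes. Of artNOG02215, with 4 UGTs, 2 were called lower in CY, KZS20180.1 and KZS18442.1, whereas KZS20179.1, adjacent to KZS20180.1, measured 4.80 to 9.12 CPM in GA and 2.08 to 12.8 CPM in CY. KZS20179.1 was named after its values were seen.

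By spelling, 3 further GST genes fall outside the rule ("Glutathione S transferase"): KZS19372.1 and KZS19373.1, named E10, and KZS12172.1, named D11. They were looked at after the member list was known. KZS19373.1 and KZS12172.1 were called lower in both CY and CRY against GA, and the sum of the 3 was 521 to 574 CPM in GA, 283 to 438 CPM in CY and 395 to 486 CPM in CRY.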

How the data were processed

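The labels describe 15 libraries from pools of whole animals, 3 per diet. The authors used Trimmomatic, Bowtie2 and RSEM v1.2.31 with reference v2.4 of the species. The expected count the authors deposited is RSEM's estimate, not normalised, and a fraction shows that a read was shared out among genes. FPKM values as deposited are scaled by gene length and library size and are used only for levels between genes. Other deposited values used here are the gene positions of the authors' annotation. TPM values were not used.

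After rounding to whole numbers, the expected counts went into edgeR 4.0.16 under R 4.3.3 (filterByExpr, TMM, glmQLFit, glmQLFTest) on the libraries of the diets compared, with Benjamini-Hochberg adjustment over all genes tested. Calls needed an adjusted p not above 0.01. The SE is the log2 fold change divided by the square root of F. CPM used TMM factors of all 15 libraries. Nothing in the labels says whether pools came from separate jars, so p-values measure only the spread between these pools. Totals ranged from 18062681 to 22287959, and the spread between pools sets the precision.

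Alternatives were RLE factors, DESeq2 1.42.0, no filter, at least 10 counts in every library, 1 fit of all libraries, a replicate block, an adjusted p not above 0.05, members with whole counts only, tandem gaps of 50 kb and each library left out. The fits of CY and CRY against GA were tested on simulated data with known changes. In CY against GA, 21 of 97 genes with a log2 change of 1 were called, and 77 of 99 with a change of 2. In CRY against GA these were 61 of 99 and 86 of 99. Unchanged genes gave 2 false calls in CY against GA and 1 in CRY against GA.

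Named are the 5 members per family with the highest mean FPKM, every called member, the 3 with the smallest p where fewer than 3 were called, and called genes of each pathway list if at most 10. The members and lists were chosen with earlier results of these data known. No member identifier matched the RefSeq gene table, so no sequences are shown.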

Additional observations from a re-analysis of the deposited data

How the results depend on the processing

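The alternative without GA+EPA replicate 1 and CY+EPA replicate 2 was chosen after seeing the data. No alternative reversed the sign of any member named in a comparison. For CY against GA the count of 15 members called became 6 with a replicate block and ran from 1 to 15 with 1 library left out. The shares over all genes in these fits were 1.21% and 0.783% to 8.73%. For CY+EPA against GA+EPA the count of 1 became 0 with RLE factors, with at least 10 counts in every library and with a replicate block. These fits called 0.112%, 0.0987% and 0% of all genes. The count became 2 with DESeq2, beside 3.56% of all genes, and ran from 0 to 1 with 1 library left out, beside 0% to 0.158%. Without GA+EPA replicate 1 and CY+EPA replicate 2 it was 4, beside 2.3% of all genes. For CRY against GA the count of 22 became 9 when all 15 libraries shared a fit, and 14 to 19 with 1 library left out. Of all genes, 5.68% and 9.41% to 17.1% were called there. For the 5 diets the count of 11 became 20 with DESeq2, 20 with the limit on the adjusted p at 0.05 and 5 to 16 with 1 library left out, and was 17 without both libraries named above. DESeq2 called 24.1% of all genes, and 3597 of all 14981 passed the limit of 0.05. Fits with 1 library left out called 3.37% to 12.4% of all genes. DESeq2 called 1 member for EPA on GA, 1 for the difference of EPA effects and 2 for CRY against CY, where edgeR called 0. The DESeq2 shares over all genes were 2.51%, 0.297% and 1.14%. CRY against CY also ran from 0 to 1 with 1 library left out, beside 0% to 0.691% of all genes. The cause of these changes was not tested. Beside the counts of 6 and 0 above, the replicate block gave 19 for CRY against GA and 8 for the 5 diets (15.1% and 4.89% of all genes). In the other comparisons it gave 0, as without it. Same-numbered libraries had correlations of their deviations between -0.351 and 0.651, and in no comparison were all 3 above 0.1, so the numbers do not show a pairing. The 10 tandem clusters were also found with gaps of 50 kb. With 3 pools per diet, a member that was not called is not shown to be equal between diets.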
